A study of Homo sapiens with 4 samples.

Results

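Very wide SMAD1 peaks are the stretches of at least 2000 bp over which SMAD1 ChIP-seq signal was called in H1 cells, a line of human embryonic stem cells (hESCs). They were chosen by width alone, from the peak lists of untreated cells and of cells given BMP4. After 4 regions named with the rule had been left out, 240 of the 5203 untreated peaks (4.61%) and 159 of the 7682 BMP4 peaks (2.07%) qualified, which makes 399 of 12885. Another 44 untreated and 35 BMP4 peaks of this width lay in the 4 regions left out, 1 on the short arm of chromosome 6 and 3 on chromosome 1. The peaks are given by position in human genome build hg19 and carry no gene names, because no annotation of that build was used here.

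H1 cells grown in mTeSR1, a medium that keeps hESCs pluripotent, were either left untreated or exposed to BMP4 at 50 ng/ml for 60 min, and both conditions were immunoprecipitated with the same SMAD1 antibody (CST6944). The samples are 1 SMAD1 ChIP and 1 input per condition, all from this single line, with chromatin sheared to 100 to 400 bp. Replicate ChIP and replicate input samples were merged by the authors before peak calling, and the 2 input samples entered only as background in that step. There is 1 list per condition and its own read depth is not given in the sources used here, so a difference between the lists has no replicate error, was not tested, and cannot be told apart from a difference in depth.

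SMAD1 carries the signal of BMP ligands from their receptors at the cell surface to the nucleus, where it binds DNA with SMAD4 and other transcription factors. Its sites at regulatory elements are usually narrow, near the length of the sequenced fragments. Sequence beside centromeres and near chromosome ends is known for tandem repeats and recent duplications, and in such sequence the reads of many copies can be placed on few positions of an assembly. Whether a given peak lies in such a repeat was not determined here.

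Above 2000 bp the order of the lists was the opposite of that over all peaks. With the 4 regions left out, the untreated list had 0.659 peaks of 500 bp or more for each one in the BMP4 list. At 1000 bp the ratio was 0.867, from 954 and 1101 peaks. It passed 1 at a minimum of 1500 bp, with 441 untreated against 326 BMP4 peaks, a ratio of 1.35. At 2000 bp it was 1.51, at 3000 bp 1.88 (113 against 60 peaks) and at 5000 bp 2.25 (45 against 20). The ratio of untreated to BMP4 peaks thus grew with each step in minimum width up to 5000 bp, while the numbers of peaks fell. Each count includes the peaks of all wider limits, so the steps are not independent. At 10000 bp there were 7 untreated and 3 BMP4 peaks. With peaks of a list up to 1000 bp apart joined first, 268 untreated and 221 BMP4 peaks reached 2000 bp, a ratio of 1.21. Very wide peaks covered 938 kb in the untreated list and 564 kb in the BMP4 list, which is 18.5% and 8.69% of all sequence in the respective list.

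**Figure D1:**
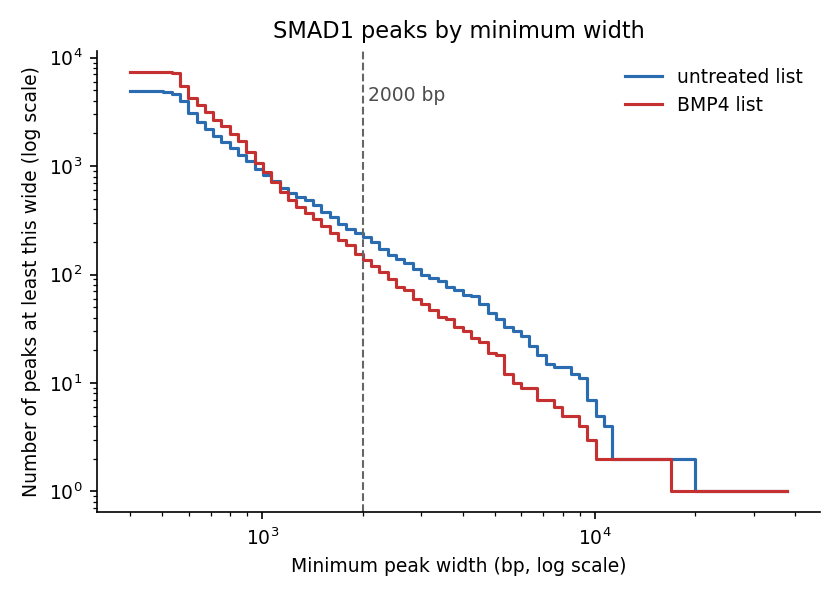
Number of SMAD1 peaks (vertical axis, log scale) at least as wide as the value on the horizontal axis (bp, log scale), for the untreated list (blue) and the BMP4 list (red), with the 4 regions left out. The curves cross between 1000 bp (954 against 1101 peaks) and 1500 bp (441 against 326), and the untreated list lies above at the dashed line of 2000 bp (240 against 159).

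Width and score chose or moved with the members and are given as a description only. The median width was 2888 bp in the untreated list, with quartiles of 2349 and 4541 bp and a range of 2007 to 38910 bp. The BMP4 median was 2637 bp, with quartiles of 2257 and 3666 bp and a range of 2001 to 38979 bp. The score of a peak, read as 10 times the −log10 of its p-value against input, had a median of 179 among untreated members and of 141 among BMP4 members. Narrower peaks had medians of 59.9 and 62.3. Very wide did not always mean high: 63 untreated members (26.3%) and 60 BMP4 members (37.7%) scored under 100.

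The limit of 2000 bp fell inside a run of similar widths. The untreated peaks just inside it were 2007, 2007 and 2008 bp wide with scores of 259.86, 71.95 and 114, and those just outside were 1980, 1986 and 1990 bp wide with scores of 137.36, 197.17 and 73.09. In the BMP4 list the nearest peaks inside were 2001, 2002 and 2003 bp wide, scoring 95.92, 69.17 and 233.9. Those outside were 1995, 1996 and 1997 bp wide, scoring 82.17, 122.32 and 3100.

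The widest peak of either list was at one place, on the long arm of chromosome 1. In untreated cells it ran from 228743802 to 228782711 (38910 bp) with a score of 1667, and after BMP4 from 228743947 to 228782925 (38979 bp) with a score of 3100. Its edges moved by little beside its length, and it lay far from both the centromere and the chromosome end. The tandem array of 5S ribosomal RNA genes is known to lie on this chromosome arm, but no annotation placed the peak in it or outside it.

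The other widest peaks were spread over several chromosomes, and some had no like counterpart. The second widest untreated peak, on chromosome 19 from 36780582 to 36800701 (20120 bp, score 432), overlapped 6 separate BMP4 peaks. With a neighbour it made a locus where very wide peaks covered 22668 bp in untreated cells and 2485 bp after BMP4. Peaks of any width covered 22668 and 10152 bp there, in 2 untreated and 6 BMP4 peaks. The second widest BMP4 peak, also on chromosome 19 from 50593942 to 50611706 (17765 bp), scored only 61.1, and the nearest untreated peak was 22.2 kb away. On chromosome 4 an untreated peak of 11090 bp (9340671 to 9351760) scored 57.5 where the BMP4 list had 11661 bp in 2 peaks with scores of up to 321.

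Further members of this size lay at ends of long arms and beside centromere gaps, the unsequenced stretches of the assembly. An untreated peak of 11406 bp on chromosome 4 (190986194 to 190997599, score 592) was 162 kb from the chromosome end, and one of 11366 bp on chromosome 10 (135477633 to 135488998, score 1287) was 51.4 kb from it. At the chromosome 10 locus the BMP4 list had 8260 bp in 2 very wide peaks with scores of up to 635, and 12126 bp in 5 peaks of any width. The long-arm ends of chromosomes 4 and 10 are known to carry D4Z4 macrosatellite repeats, and overlap of these peaks with them was not determined. On chromosome Y a BMP4 peak of 10503 bp (10094180 to 10104682, score 656) had its midpoint 5.12 kb from the centromere gap. The untreated list had a peak of 10442 bp at that place, with a score of 110. The remaining members among the 5 widest of the BMP4 list were 9605 bp on chromosome 16 (33951944 to 33961548, score 1454) and 9182 bp on chromosome 2 (91775161 to 91784342, score 269).

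Overlap between the lists was more frequent among very wide peaks than over the whole lists. Of the untreated members, 135 of 240 (56.3%, 95% exact Clopper-Pearson interval 49.7 to 62.6%) shared at least 1 bp with a BMP4 peak, against 18.3% of all untreated peaks and 13.1% (12.2 to 14.1%) of narrower ones. Of the BMP4 members, 108 of 159 (67.9%, 60.1 to 75.1%) overlapped an untreated peak, against 12.7% of all BMP4 peaks and 9.09% (8.44 to 9.78%) of narrower ones. These intervals cover counting error only and treat peaks as independent, although many members lie close together. A wider peak meets more sequence, so an overlap of at least 1 bp comes more easily to it. The distance of midpoints was therefore compared as well. A midpoint of the other list lay within 1000 bp of 44.2% of untreated and 52.8% of BMP4 members, against 13.5% and 8.94% of narrower peaks. Score and closeness to other members also differed between members and narrower peaks, and their part in these shares was not tested.

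**Figure D2:**
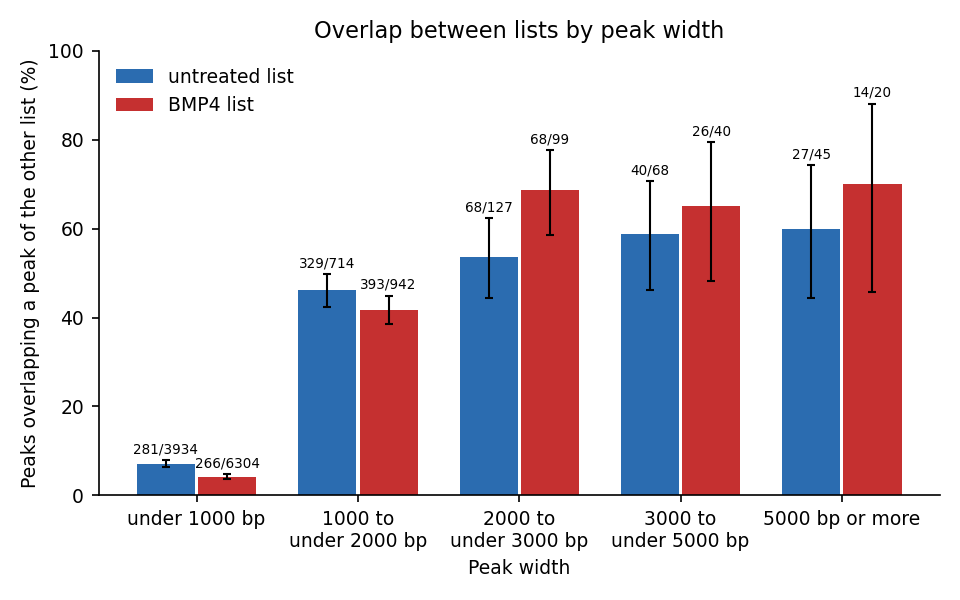
Share of peaks (%, bars, with 95% exact Clopper-Pearson intervals as lines) that share at least 1 bp with the other list, by width class in bp, for the untreated list (blue) and the BMP4 list (red); numbers above the bars are overlapping peaks of all peaks in the class. The share was 7.14% and 4.22% under 1000 bp and 60.0% and 70.0% at 5000 bp or more.

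The share with an overlap rose most between the narrowest peaks and those of 1000 to under 2000 bp. It was 7.14% under 1000 bp and 46.1% from 1000 to under 2000 bp in the untreated list, and 4.22% and 41.7% in the BMP4 list. Within the very wide range it was 53.5%, 58.8% and 60.0% for untreated peaks of 2000 to under 3000, 3000 to under 5000 and at least 5000 bp. The corresponding BMP4 shares were 68.7%, 65.0% and 70.0%. The intervals of these 3 width classes overlap within each list, and an order among the very wide peaks was not tested. Peaks of a wider class also meet more sequence.

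Score altered this picture. Below a score of 100, an overlap was found for 41.3% of untreated members and 6.0% of narrower untreated peaks, and for 53.3% and 4.80% in the BMP4 list. At scores of 300 or more the untreated order was turned round, with 76.0% (64.7 to 85.1%) of members and 90.3% (85.4 to 94.0%) of narrower peaks overlapping. In the BMP4 list the shares at these scores were 82.1% (66.5 to 92.5%) and 71.2% (65.6 to 76.4%), with overlapping intervals. Between scores of 100 and 300 members overlapped more often than narrower peaks in both lists, at 51.0% against 36.1% and 73.3% against 17.4%, so the higher overlap of untreated members held below a score of 300 and not above it.

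Counted once per place, the members formed 299 loci. A very wide peak of each list was present at 86 of them. Untreated members stood without any BMP4 peak at 105 loci and against a narrower BMP4 peak at 43. BMP4 members stood without any untreated peak at 51 loci and against a narrower untreated peak at 14. Sequence inside members of both lists came to 322 kb, which is 34.4% of the untreated and 57.2% of the BMP4 member sequence.

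Members without an overlap often had a peak of the other list close by. Of the 105 untreated members without one, 49 (46.7%, interval 36.9 to 56.7%) lay within 10 kb of a BMP4 peak, and 22 of the 51 BMP4 members (43.1%, 29.3 to 57.8%) lay within 10 kb of an untreated peak. The median distance was 11.5 and 12.2 kb. For narrower peaks without an overlap the shares were 11% and 6.0% and the median distances 111 and 213 kb.

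Some of these members scored high. In the untreated list the highest score without an overlap was 2624, for a peak of 2450 bp at the very start of chromosome 5 (9852 to 12301), whose midpoint was 11.1 kb from the chromosome end, the closest of all untreated members. The next was 2243 on chromosome 21 (9825285 to 9828080), 1461 kb from the centromere gap and so beside it by the limit of 2 Mb. A peak of 4835 bp on chromosome 2 (162134650 to 162139484) scored 796 with a BMP4 peak 7.68 kb away. The remaining 2 of these 5 were beside centromeres as well, 6971 bp on chromosome 21 (9694443 to 9701413, score 663) and 5440 bp on chromosome 17 (25262962 to 25268401, score 545). The peak on chromosome 17 was also the untreated member nearest a centromere gap, at 2.67 kb.

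In the BMP4 list the highest score without an overlap was 2877, for a peak of 2190 bp on chromosome 2 (8817787 to 8819976), and an untreated peak lay 2.01 kb away. Next were 2 peaks on chromosome 20, at 30191537 to 30193543 (score 1177) and 30159770 to 30161818 (score 1073), both under 1 Mb from the centromere gap. A further BMP4 member, at 30193991 to 30197040 (score 1561), lay beside the first of them and overlapped a narrower untreated peak. It is named here after its values were seen. Which genes lie at these peaks, or at the one on chromosome 2, was not determined. A peak of 2857 bp on chromosome 5 (563274 to 566130) scored 1067 and had no untreated peak within 172 kb. A peak of 2212 bp on chromosome 2 (87575108 to 87577319) scored 537. The BMP4 members nearest a centromere gap and a chromosome end were weak peaks, a 3168 bp peak on chromosome 12 (34851620 to 34854787, score 93.3) at 3.49 kb and a 2220 bp peak on chromosome 19 (59115944 to 59118163, score 76.6) at 11.9 kb.

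Very wide peaks of both lists overlapped in 100 pairs, made of 92 untreated and 94 BMP4 peaks, since a peak that met several peaks of the other list entered several pairs. Width chose both peaks of a pair and score moves with it, so the pairs are described without a test. The untreated score was higher in 64 pairs, the BMP4 score in 30, and 6 had equal scores, with a median ratio of 1.56. In the 75 pairs whose peaks entered no other pair the counts were 42, 27 and 6 and the median ratio was 1.26. The untreated peak was the wider in 69 of the 100 pairs and in 45 of the 75, and the median width ratio was 1.07 and 1.03. Scores were not set to a common depth. Among the 598 overlapping pairs of narrower peaks the BMP4 score was the higher in 327 and the untreated score in 256. The order of scores in the very wide pairs was thus not that of the narrower pairs. Peaks without an overlap enter neither comparison.

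The edges of paired peaks were often close. The median offset of an edge was 204.5 bp over the 100 pairs, and at least 50% of both peaks was shared in 77 and at least 90% in 39. Pairs beside centromeres lined up most closely, with a median offset of 70 bp, and all 30 of them shared at least 50% of both peaks. Their widths were split evenly, with the untreated peak wider in 15 and the BMP4 peak in 14. The 13 pairs near chromosome ends had a median width ratio of untreated to BMP4 of 2.13, but they held only 10 untreated peaks. Several of these, on chromosomes 4 and 10, met 2 very wide BMP4 peaks, and in the 7 pairs whose peaks entered no other pair the median ratio was 1.01. In the 57 pairs elsewhere the ratio was 1.16, and 1.08 in the 38 whose peaks entered no other.

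**Figure D3:**
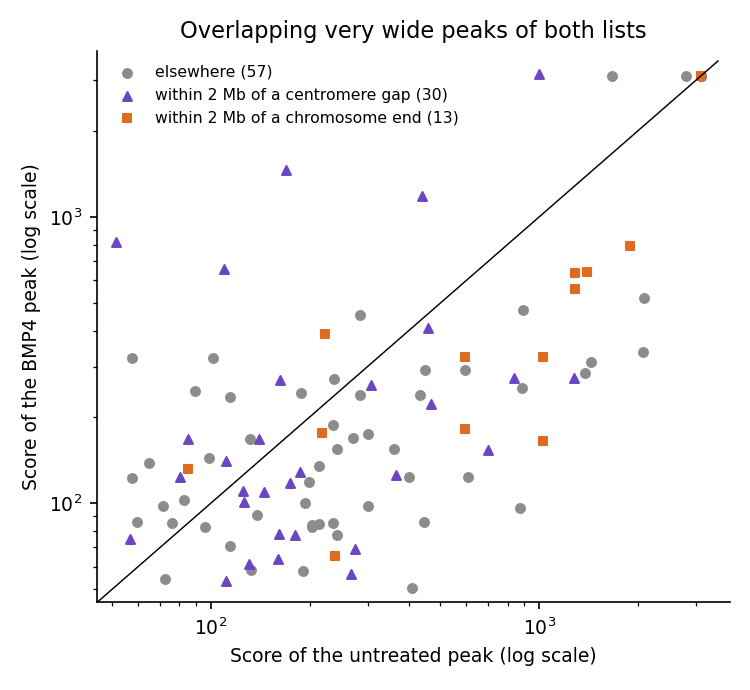
Scores of 100 overlapping pairs of very wide peaks, with the untreated score on the horizontal and the BMP4 score on the vertical axis (both log scale); triangles lie within 2 Mb of a centromere gap (30 pairs), squares within 2 Mb of a chromosome end (13) and circles elsewhere (57), and the line marks equal scores. More pairs lie below the line (64, untreated higher) than above it (30), and the triangles farthest above it are on chromosomes Y and 16.

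Pairs with a large difference in score went both ways. The untreated score was at least 4 times the BMP4 score in 11 pairs, and the largest such ratio was 9.09, on chromosome 11 (122928615 to 122931190, 871 against 95.8). The BMP4 score was at least 4 times the untreated score in 4 pairs, chosen for naming after their values were seen. The ratio was 15.9 on chromosome Y (10018687 to 10025836 in the untreated list, 51.3 against 817) and 8.60 on chromosome 16 (33953943 to 33961640, 169 against 1454). It was 5.99 at the 10442 bp peak beside the centromere gap of chromosome Y and 5.59 at the 11090 bp peak of chromosome 4. Of these 4 pairs, 3 were beside a centromere, against 3 of the 11 with the higher untreated score.

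A score of 3100 was shared by 7 untreated and 9 BMP4 members, and scores at that level carry little order. All 16 overlapped a peak of the other list and none was within 2 Mb of a centromere gap. Among narrower peaks, 16 untreated and 107 BMP4 ones also scored 3100. Of the narrower peaks scoring 300 or more, 90.3% and 71.2% overlapped, and 3.88% and 3.86% were within 2 Mb of a gap. Neither trait was therefore particular to very wide peaks of high score. The highest score of any member was 3158, for a BMP4 peak on chromosome 10 (42596540 to 42601905) that lay 344 kb from the gap. Among members scoring 1000 or more, 3 of 23 untreated and 6 of 17 BMP4 ones were within 2 Mb of a gap. These BMP4 members came only from chromosomes 10, 16 and 20, and those on chromosomes 16 and 20 were neighbours. Among all members scoring 300 or more the shares near a gap were 22.7% and 23.1%, so almost alike in both lists. In 6 pairs both peaks scored 3100, on chromosomes 5, 11 and 17, with widths of 2092 to 3376 bp. In each of these pairs the shared stretch made up 86.5 to 98.9% of the wider peak. The methods of the study name unspecific enrichment at transfer RNA genes, and whether these pairs lie at such genes was not determined here.

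Very wide peaks lay beside centromeres several times as often as narrower ones. The midpoint was within 2 Mb of the centromere gap for 91 of 240 untreated members (37.9%, interval 31.8 to 44.4%), against 8.19% of all untreated peaks and 7.21% (6.48 to 7.99%) of narrower ones. For BMP4 members it was 61 of 159 (38.4%, 30.8 to 46.4%), against 4.5% of all BMP4 peaks and 3.93% (3.50 to 4.41%) of narrower ones. The lists thus had almost the same share of members there, although their narrower peaks had 7.21% and 3.93%. Within 0.1 Mb of the gap lay 20 untreated (8.33%) and 17 BMP4 members (10.7%), against 0.947% and 0.345% of narrower peaks. The median distance to the gap was 15.7 and 14.1 Mb for members and 35.8 and 38.3 Mb for narrower peaks.

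**Figure D4:**
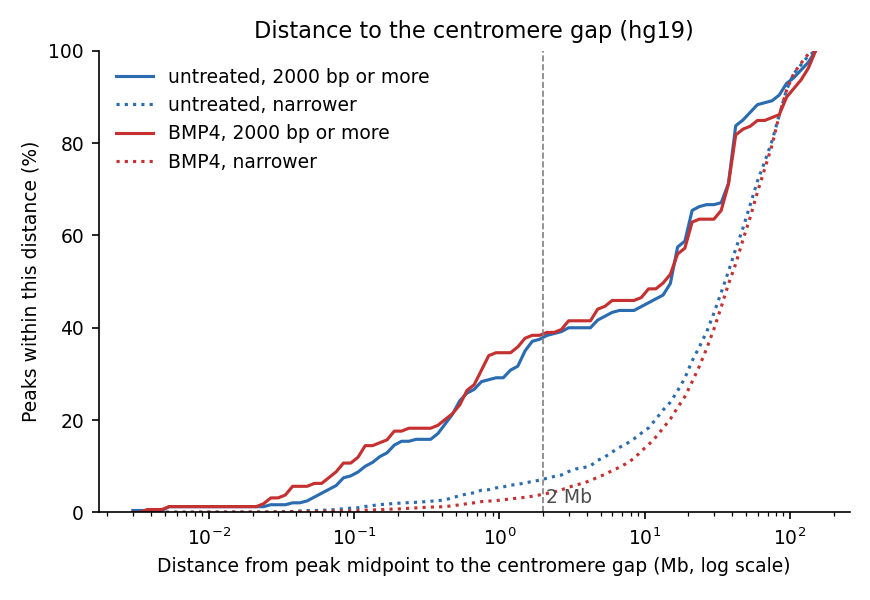
Cumulative share of peaks (%, vertical axis) by the distance of their midpoint from the hg19 centromere gap (Mb, log scale), for the untreated list (blue) and the BMP4 list (red), with peaks of 2000 bp or more as full lines and narrower peaks as dotted lines. At the dashed line of 2 Mb the full lines are at 37.9% and 38.4% and the dotted lines at 7.21% and 3.93%.

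The members beside centromeres came from many chromosomes, with a large part from chromosomes 21 and Y. At least 1 untreated member was within 2 Mb of the gap on 18 of 24 chromosomes and at least 1 BMP4 member on 15. Chromosomes 21 and Y held 37 of the 91 untreated and 20 of the 61 BMP4 members in question. Without those chromosomes the shares were 54 of 198 (27.3%, 21.2 to 34.0%) and 41 of 136 (30.1%, 22.6 to 38.6%), against 5.35% and 3.27% of narrower peaks.

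The share beside centromeres rose with each width class among BMP4 members and not steadily among untreated ones. No test of an order was run. In the BMP4 list the share was 31.3% (22.4 to 41.4%), 45% (29.3 to 61.5%) and 60.0% (36.1 to 80.9%) for peaks of 2000 to under 3000, 3000 to under 5000 and at least 5000 bp. These intervals overlap. In the untreated list the same classes had 37.0%, 36.8% and 42.2%. By score, the share was lowest in the highest class. Members with scores under 100 lay there in 46% and 48.3% of cases, against 6.43% and 3.77% of narrower peaks of such scores. From 100 to under 300 the members' shares were 44.1% and 38.3%. At scores of 300 or more they were 22.7% and 23.1%, and 3.88% and 3.86% for narrower peaks. The intervals of the lowest and highest class were 33.4 to 59.1% against 13.8 to 33.8% for untreated and 35.2 to 61.6% against 11.1 to 39.3% for BMP4 members. They overlap in both lists, though barely in the untreated one, and the difference between the classes was not tested.

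In the untreated list, members beside centromeres overlapped the other list less often than members elsewhere. An overlap was found for 39 of 91 (42.9%, interval 32.5 to 53.7%) beside centromeres and 81 of 126 (64.3%, 55.3 to 72.6%) away from centromeres and ends. Among BMP4 members the shares were 37 of 61 (60.7%, 47.3 to 72.9%) and 57 of 80 (71.3%, 60.0 to 80.8%), with intervals that overlap. The median scores beside centromeres were 130 and 109, below the 204 and 155 of members elsewhere.

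Chromosome ends held fewer members than centromeres, and the comparison with narrower peaks depended on the distance. Within 2 Mb of an end were 23 of 240 untreated members (9.58%, interval 6.17 to 14%), against 5.98% of all untreated peaks and 6.20% (5.52 to 6.93%) of narrower ones. In the BMP4 list there were 18 of 159 (11.3%, 6.85 to 17.3%), against 4.15% of all BMP4 peaks and 4.15% (3.71 to 4.64%) of narrower ones. The untreated intervals of members and narrower peaks overlap. Within 0.5 Mb of an end the shares were 6.67% (3.86 to 10.6%) against 2.37% (1.95 to 2.85%) in the untreated list and 7.55% (3.96 to 12.8%) against 1.21% (0.975 to 1.49%) in the BMP4 list, with no overlap of intervals in either. These intervals treat peaks as independent, although many of these members were neighbours. A single group at the long-arm end of chromosome 4 gave 4 untreated and 5 BMP4 members, so the intervals are too narrow to judge the difference. Within 5 Mb the untreated shares were almost equal, 11.7% (7.89 to 16.4%) against 11.3%, and the BMP4 shares were 13.2% (8.37 to 19.5%) against 8.58% (7.95 to 9.25%), with overlapping intervals.

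Members near ends scored high, with medians of 289 in the untreated and 324 in the BMP4 list. They overlapped the other list in 15 of 23 (65.2%, interval 42.7 to 83.6%) and 14 of 18 cases (77.8%, 52.4 to 93.6%). The 64.3% and 71.3% of members away from centromeres and ends lie inside these intervals, so frequent overlap did not set the ends apart. Members near ends came from 13 chromosomes in the untreated and 9 in the BMP4 list, and chromosome 4 gave 4 of the 23 and 5 of the 18.

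By chromosome, the members were unevenly spread. Chromosome 4 held the most over both lists, with 27 untreated and 15 BMP4 members. Chromosome 21, among the smallest, held 24 untreated members, all within 2 Mb of the centromere gap, and 8 BMP4 members. These made up 21.1% and 7.69% of all listed peaks on that chromosome. On chromosome Y the 18 untreated and 15 BMP4 members made up 25.4% and 22.4%, and on chromosome 19 the 17 and 9 members made up 12.7% and 5.59%. Chromosomes 5 (16 and 11), 2 (15 and 10), 7 (15 and 12), 1 (14 and 11) and 16 (14 and 6) followed by number of untreated members after chromosome 19. At the other extreme, chromosome 3 had 2 members in each list, and chromosome X had 1 untreated and 0 BMP4 members.

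The untreated list had more members on 18 of the 24 chromosomes, the BMP4 list on 2 (chromosomes 13 and 20), and 4 had equal numbers. Leaving out any one chromosome kept the ratio of untreated to BMP4 members between 1.43 (without chromosome 21) and 1.54 (without chromosome 20). The higher number in the untreated list was therefore not a matter of a single chromosome.

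**Figure D5:**
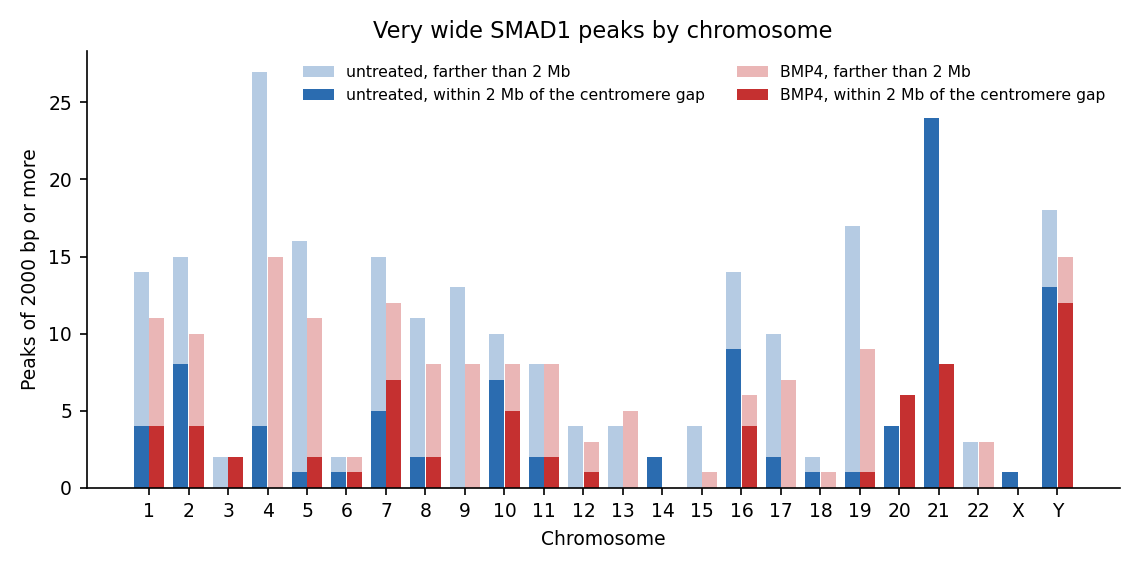
Number of very wide peaks (vertical axis) on each chromosome (horizontal axis) in the untreated list (blue) and the BMP4 list (red); the full-coloured part of a bar lies within 2 Mb of the centromere gap and the pale part farther away. Chromosome 4 has the tallest bar (27 untreated members), and all 24 untreated members of chromosome 21 lie near its centromere gap.

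Many members stood in groups. Joining members no more than 100 kb apart, a distance set after the values had been seen, gave 22 groups of at least 5 members on 14 chromosomes. They held 187 members (46.9% of 399), of which 113 were untreated and 74 BMP4. With 50 kb in place of 100 kb the share was 41.1%, and with 200 kb it was 51.6%. Of the 22 groups, 9 were within 2 Mb of a centromere gap, 1 was near a chromosome end and 12 were elsewhere. Untreated members covered more sequence than BMP4 members in 17 groups and less in 5, and the untreated cover was at least 2 times the BMP4 cover in 7 groups, with 0 groups at that ratio the other way. With peaks of any width, untreated cover was larger in 15 groups and smaller in 7, and at least 2 times the BMP4 cover in 5.

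The groups described next were picked for their size or their difference between lists. The one with the most members was on the short arm of chromosome 4, from 9214452 to 9368958. Its 16 untreated members filled 89.9 kb (58.2% of the 155 kb span), and its 8 BMP4 members 30.5 kb (19.8%). Counting peaks of any width there brought the cover to 97.4 and 51.7 kb, so BMP4 peaks under 2000 bp made up part of the BMP4 cover there. Of the 16 untreated members, 15 overlapped a BMP4 peak. The group at the long-arm end of the same chromosome (190942225 to 191014563) had 4 untreated members over 30.3 kb and 5 BMP4 members over 12.1 kb, with scores of up to 1399 and 639.

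A small group on chromosome 13 (57721700 to 57746584) was the most densely filled, with 87.2% of its span in untreated and 50.7% in BMP4 members. On chromosome 19 a group from 8851415 to 8897350 had 8 untreated members over 33.0 kb and 1 BMP4 member over 3.56 kb, and on chromosome 21 one from 11075628 to 11175640 had 8 untreated members over 29.6 kb and 1 BMP4 member over 3.91 kb. These had the highest ratios of untreated to BMP4 cover among the 22 groups, 9.25 and 7.57. With peaks of any width the ratios were 3.17 and 8.60, so the one on chromosome 19 rested in large part on the limit of 2000 bp. Of the 8 untreated members, 6 on chromosome 19 and 1 on chromosome 21 overlapped a BMP4 peak. Of the 9 groups near centromeres, 7 had more untreated and 2 more BMP4 member cover. Among them, cover was alike or larger after BMP4 on chromosome 10 from 39106748 to 39154685 (14.2 kb and 13.6 kb, 4 members each) and on chromosome Y from 13650179 to 13870432 (16.4 kb in 6 untreated and 26.7 kb in 7 BMP4 members). Beside the centromere of chromosome 1 (121407664 to 121474047) each list had 4 members, and 0 of the 4 untreated ones overlapped a BMP4 peak of any width. Of the 4 BMP4 members there, 1 overlapped a narrower untreated peak.

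Scores differed among the next groups. On chromosome 17, from 8021896 to 8126815, each list had 3 members, over 8.41 kb in untreated and 8.90 kb in BMP4 cells, and all of them overlapped and had a score of 3100. On chromosome 16 a group from 33864699 to 34023140 had 8 untreated members with scores of up to 457 and 4 BMP4 members with scores of up to 1454. Beside the centromere gap of chromosome Y (9983873 to 10104692) there were 5 untreated members over 24.2 kb and 3 BMP4 members over 18.1 kb, with scores of up to 469 and 817. On the long arm of chromosome 7 (102126697 to 102315510) the 6 untreated members covered 16.9 kb and the 2 BMP4 members 4.70 kb, and only 1 of the 6 overlapped a BMP4 peak. The last group on chromosome Y (28790267 to 28814213) had 59.2% of its 23.9 kb in 5 untreated and 19.6% in 2 BMP4 members. The highest scores were 354 and 99.7 in the group on chromosome 7 and 282 and 83.7 in this last one. In the groups on chromosome 16 and beside the gap of chromosome Y the highest score was a BMP4 one and the larger cover untreated, whereas on chromosome 7 and in the last group of chromosome Y both were higher in the untreated list.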

How the data were processed

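The authors aligned reads to hg19 with BWA 0.7.5a, merged replicate ChIP and replicate input samples and called peaks with MACS 1.4.2 at default settings, by the study's methods. The deposited lists are longer than the numbers of peaks in those methods by more than an order of magnitude, and the methods give fewer BMP4 than untreated peaks where the lists hold more, so it is uncertain that the lists came from that run. They give the start and end of each peak in bp (the unit recorded as other) and the deposited score of the peak caller, read here as 10 times −log10 of its p-value. Read counts are absent from them. The methods state only an average of aligned reads across all SMAD ChIP and input libraries, so the depth behind each list is unknown.

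Width was the end minus the start as listed, where starts count from 0. Printed starts count from 1. Overlap meant at least 1 bp, and a peak was near a centromere or end if its midpoint was within 2 Mb of the hg19 centromere gap or chromosome end. Gap positions and chromosome lengths came from the known table of hg19. No peak midpoint fell in a gap, 3 peaks reached into one by at most 139 bp, and 0 peaks passed a chromosome end. Shares have 95% Clopper-Pearson intervals. With 1 list per condition no test was run. The members and lists were chosen with earlier results of these data known. Single peaks were named by rule: in each list the 5 widest, the 5 with the highest score and no overlap, the member nearest a gap and nearest an end, the 5 widest loci of both lists, and the 3 peaks on each side of the limit. Others are said to have been chosen after their values were seen. The steps were tested on simulated lists. Python 3.11.15 with numpy 2.4.6, pandas 2.3.3, scipy 1.17.1 and matplotlib 3.10.9 was used, with 9 other settings fixed at the start and 3 chosen later, with the data known. The hg38 reference was not used.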

Additional observations from a re-analysis of the deposited data

How the results depend on the processing

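Of 59 alternative values for 10 results, 46 were labelled close to the value reported and 13 moved. Shares labelled close all lay within the interval of the reported share. For numbers and ratios the limit was wide, and ratios of 1.21 and 2.25 counted as close to 1.51. The 46 include BMP4 shares that could not move. Taking equal numbers of the widest peaks kept 159 per list, which is every BMP4 member. The BMP4 shares of 67.9% overlapping, 38.4% near centromeres and 11.3% near ends were therefore unchanged by construction. The ratio of untreated to BMP4 members stayed above 1 in all 5 alternatives tried, from 1.21 with peaks up to 1000 bp apart joined (268 against 221) to 2.25 at 5000 bp. Requiring 3000 bp left 113 untreated and 60 BMP4 members and 33 loci of both lists, and 5000 bp left 45 and 20. At 3000 bp the BMP4 share was 50.0% near centromeres and 6.67% near ends. Where peaks scoring under 100 were dropped from the lists, 99 BMP4 members and 55 loci of both lists were left, and 42.4% of untreated members overlapped. A shared stretch making up 50% or more of each peak was met by 39.6% of untreated and 53.5% of BMP4 members. Within 1 Mb of the centromere gap lay 29.2% of untreated members. The 5000 bp limit, the joining of peaks and the use of the peak-free stretch around the gap were chosen after seeing the data. No paired analysis was possible because there is only 1 list of peaks for untreated and 1 for BMP4-treated cells. Unknown depth limits every comparison of scores, widths and numbers between the lists.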
